A study of Mus musculus with 6 samples.

Results

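Cytosolic ribosomal proteins build the 2 subunits of the ribosome. Their mRNAs belong to the TOP mRNAs, which begin with a C followed by a run of pyrimidines (a 5′ terminal oligopyrimidine tract), usually have short 5′ UTRs, and are translated together under the control of mTOR signalling and the RNA-binding protein LARP1. Mammalian genomes also hold many processed pseudogenes of these genes, and a few functional paralogs, several of which carry an l in their names. The genes described here were those whose names begin with Rpl or Rps and a digit, or are Rplp0, Rplp1, Rplp2 or Rpsa, without the S6 kinases (Rps6k), names that end in -ps, and names that join overlapping genes. This rule took 25 of the 6357 genes with transcripts, and 134 of 36303 transcripts of single genes. Of the 25, 19 were among 77 canonical subunits, 5 were paralogs (Rpl22l1, Rps27l, Rpl36al, Rpl7l1 and Rps4l), and Rps19bp1 encodes a protein that binds the small subunit protein S19 and is no subunit.

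The transcripts came from 6 single cells, 2 each of 3 types, whose STRT/C1 cDNA (a method that tags the 5′ end of each molecule with a unique molecular identifier, UMI) was read in full with PacBio. All were from the brain of CD-1 mice, by the study's text from hippocampus and cortex. For the stage the labels give Embryo, and they name no genotype, treatment or animal. This stage was not checked, and the study calls 1 of the cell types mature and myelinating. The labels call the first type oligodendrocyte progenitor cell, the study's text calls it vascular and leptomeningeal cell (VLMC), a fibroblast-like cell of vessels and meninges, and the other types are Oligo1, immature oligodendrocytes, and Oligo5, mature oligodendrocytes that form myelin. The 2 cells labelled as progenitors held 96 and 243 transcripts of a list of VLMC markers such as Dcn and Igf2 (4.16% and 5.25% of their transcripts). Both held 0 of an oligodendrocyte list. In the 4 oligodendrocytes the oligodendrocyte list made 9.26% to 14.5% of transcripts and the VLMC list 0, so VLMC is used here. Of 10 listed progenitor genes VLMC-1 and VLMC-2 held Pdgfra alone, with 5 and 3 transcripts (0.217% and 0.0649%). Oligo1-1 held 9 transcripts of this list (0.0791%), of Gpr17 and Olig2, Oligo1-2 held 2, of Olig2, and both Oligo5 cells 0. Markers of other cell types were also found. Oligo5-2 held 47 transcripts of all 4 listed neuron genes, such as Snap25 and Syt1 (0.762% of its transcripts), of which VLMC-2 held 3 and the other 4 cells 0. Of 6 pericyte and endothelial genes VLMC-1 and VLMC-2 held Vtn alone, with 11 and 35 transcripts, and of 4 astrocyte genes VLMC-2 held Slc1a3 alone, with 21 (0.454%), while Rgs5, Pecam1, Aqp4 and Gfap were at 0 in all 6 cells. Transcripts of single genes numbered 2309 and 4625 in the VLMCs and 5823 to 11371 in the oligodendrocytes. Since no animal is named, a cell type counts as 1 sample and no test compares cell types. Intervals are Wilson 95% intervals and cover counting error only.

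The start sites of 6 of these genes show what separates a TOP-type start from another. Each sequence below runs 5′ to 3′ on the strand of the gene, with 8 bases before the main 5′ end (the most used base of the main start site), and capitals mark the pyrimidine run that begins at that end. Rps3 met the rule for printing (10 or more molecules at the main start site), as did Rpl8, which is not shown, and the other 5 were chosen after their values were seen, as a large subunit gene (Rpl4) and the l-suffix paralogs. The windows are chr7:99483629-99483658 (Rps3, minus strand), chr9:64173367-64173396 (Rpl4, plus), chr3:28805503-28805532 (Rpl22l1, plus), chr12:69184016-69184045 (Rpl36al, minus), chr9:66946092-66946121 (Rps27l, plus) and chr17:46782632-46782661 (Rpl7l1, minus), all GRCm38, from RefSeq promoter windows and, for Rps3 and Rpl36al, GENCODE M21 transcripts.
Rps3: gccacttcCTTTCCTTTCagcggcgcgcgg
Rpl4: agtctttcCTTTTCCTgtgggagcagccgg
Rpl22l1: agcccgttCTCTTCCCacggctgcagctca
Rpl36al: tgttcgtcCCTTTCCTgttcggcgcgtgcg
Rps27l: atcccggaagttgctgaggggcgctcgaaa
Rpl7l1: gcaagcgcagtagctgaagcaccggaaaga
The first 4 began with C and a run of 8 to 10 pyrimidines. Rps27l and Rpl7l1 began with A and had no run. The base shown for Rps27l held 1 of its 5 ends, and 2 others shared a base 28 bases downstream, in a site with as many ends. That shown for Rpl4 held 2 ends, both of Oligo5-2, and the next base downstream held as many.

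Transcripts of ribosomal protein genes were few and came mostly from a few genes. Rpl8 had 25, Rps3 20, Rpl4 16 and Rps20 9, which together made 52.2% of the 134. Another 7 genes had 2 transcripts and 9 had 1. Over all cells there were 53 transcripts of canonical large and 60 of canonical small subunit genes (46.9% large, interval 38.0% to 56.1%), and the share varied between cells. Large subunit genes made 5 of 24 such transcripts in VLMC-2 (20.8%, interval 9.24% to 40.5%) and 9 of 11 in Oligo1-2 (81.8%, 52.3% to 94.9%), whose intervals do not overlap. These 2 cells were picked as the lowest and highest of those with more than 2 such transcripts. Of the 19 small subunit transcripts of VLMC-2, 8 were of Rps3. Its close UMIs, described below, were not merged in these counts. Whether the cells differ in this share was not tested. In Oligo1-1, Oligo5-1 and Oligo5-2 they made 45.2%, 52.4% and 53.8%, and VLMC-1 had 2 large and 0 small.

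**Figure D1:**
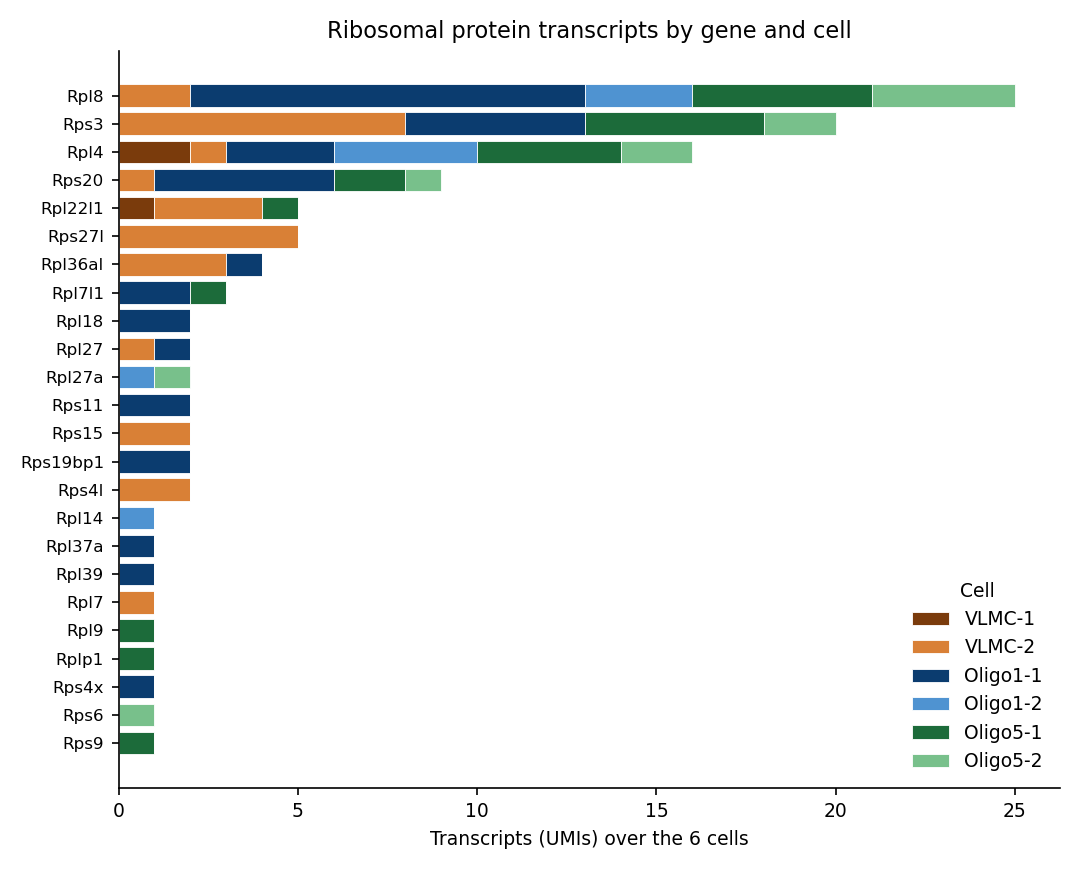
Number of transcripts (UMIs) of 24 of the 25 ribosomal protein genes, with bar segments coloured by cell. Rpl8 and Rps3 have 25 and 20 transcripts, and the 5 Rps27l transcripts all lie in VLMC-2.

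Rpl8 (chr15:76904078-76906314, plus strand) encodes a large subunit protein near the peptidyl transferase centre. It had 0 and 2 transcripts in VLMC-1 and VLMC-2, 11 and 3 in Oligo1-1 and Oligo1-2, and 5 and 4 in Oligo5-1 and Oligo5-2. It was thus found in all 4 oligodendrocytes, at 0.0499% to 0.0967% of their transcripts. VLMC-2 stood at 0.0432%, from 2 transcripts, beside 3 in Oligo1-2, the lowest oligodendrocyte. The 0 of VLMC-1 allows up to 0.130% by counting alone, so these counts do not show that VLMCs were lower. Rps3 (chr7:99477896-99483738, minus strand), a small subunit protein at the mRNA entry that also acts in DNA repair, had 0, 8, 5, 0, 5 and 2 transcripts in the same order. It had none in 2 cells of different types, and its share in VLMC-2, 0.173%, was above the highest oligodendrocyte, Oligo5-1, at 0.0859%. Rpl4 (chr9:64173375-64178666, plus strand), a large subunit protein that lines the exit tunnel, had 2, 1, 3, 4, 4 and 2 transcripts and was the only gene of the 25 found in every cell. Rps20 (chr4:3831334-3835665, minus strand), a small subunit protein of the head, had 0, 1, 5, 0, 2 and 1 transcripts.

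Ribosomal protein genes took 0.130% of transcripts in VLMC-1 (3 transcripts, interval 0.0442% to 0.381%), 0.800% in VLMC-2 (37, 0.581% to 1.10%), 0.413% in Oligo1-1 (47, 0.311% to 0.549%), 0.183% in Oligo1-2 (11, 0.102% to 0.328%), 0.395% in Oligo5-1 (23, 0.263% to 0.592%) and 0.211% in Oligo5-2 (13, 0.123% to 0.360%). The lowest and the highest share were those of the 2 VLMCs, which differed 6.16-fold, and their intervals did not overlap. Within each oligodendrocyte type the intervals of the 2 cells overlapped. The mean share of the VLMCs was 1.55 times that of the oligodendrocytes (0.465% against 0.301%), but 0.432 times without VLMC-2 and 2.66 times without VLMC-1, so the direction rested on which VLMC was kept. Oligo1 and Oligo5 had mean shares of 0.298% and 0.303%, a difference smaller than the spread between cells of 1 type. The share was 0.444% in the short run and 0.240% in the long run, which was enriched for long molecules. VLMC-2, with the highest share, also held the Vtn and Slc1a3 transcripts given above, whose part in the share was not tested.

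**Figure D2:**
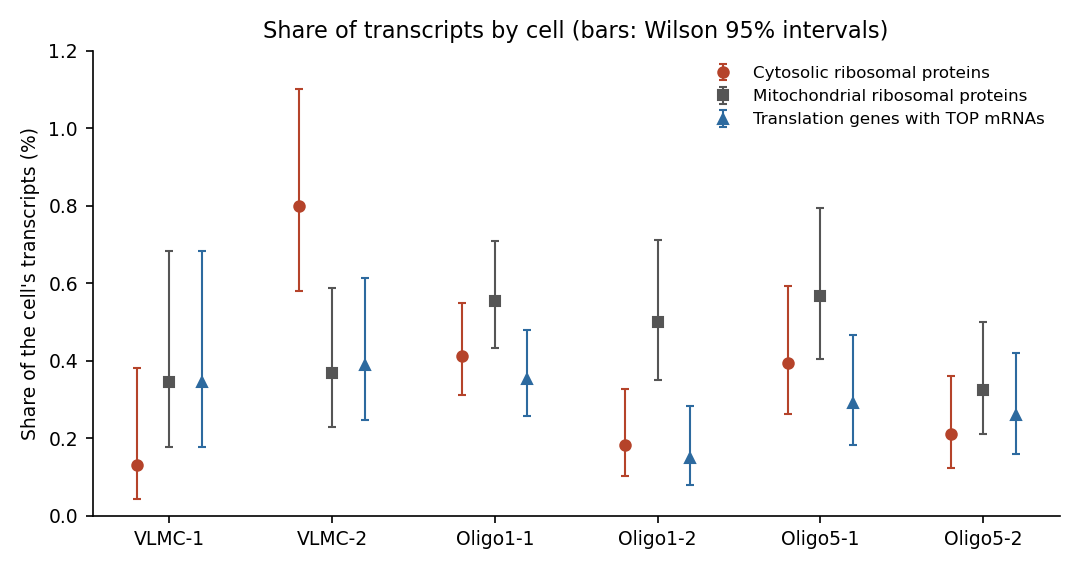
Share of each cell's transcripts, in percent, of cytosolic ribosomal protein genes, mitochondrial ribosomal protein genes and translation genes with TOP mRNAs, with Wilson 95% intervals as bars. The cytosolic share runs from 0.130% in VLMC-1 to 0.800% in VLMC-2, and the mitochondrial share from 0.324% to 0.567%.

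For comparison, 171 transcripts came from 55 mitochondrial ribosomal protein genes, which are encoded in the nucleus, have no TOP mRNAs and serve the ribosomes of mitochondria. Their share per cell was 0.324% to 0.567%, a narrower range than that of the cytosolic genes, and over all cells it was 0.471% (interval 0.406% to 0.547%) against 0.369% (0.312% to 0.437%). Among the 13756 molecules that cover an annotated first exon, where other genes are less often found, the cytosolic share was 0.771% (0.638% to 0.931%) and the mitochondrial share 0.894% (0.750% to 1.07%). The intervals of the 2 sets overlapped in both cases. Other translation genes with TOP mRNAs, such as the elongation factor genes Eef1b2 (17 transcripts) and Eef2 (6) and the snoRNA host gene Gas5 (23), had 108 transcripts from 18 of 24 listed names, or 0.150% to 0.389% per cell.

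Most canonical ribosomal protein genes had no transcript among those counted. Of the 77 canonical subunit genes, 58 had no transcript in any cell, among them Rpsa, Rplp0, Rplp2, Rps2, Rpl3 and Rpl5. At 3 counts, a gene listed at 0 could still hold 0.00826% of all transcripts, and 0.0264% of those of Oligo1-1 or 0.130% of those of VLMC-1. These limits cover counting alone, and not molecules lost to the alignment and size filters named below. Rpl8 and Rps3 had 0 annotated pseudogenes that matched 90% or more of the bases over 80% or more of the coding sequence, Rpl4 had 1 and Rps20 had 4. There were 0 such copies in 3 of the 19 detected genes and in 1 of the 58 others, Rplp2. The median was 6 (range 0 to 18) over the 19 detected genes and 9.5 (range 0 to 76) over the 58 others. Across the 77 genes, Spearman's rho between copies and transcripts was -0.28 and Pearson's r -0.22. With coding length they were 0.18 and 0.29, and with annotated spliced length 0.03 and 0.14. These correlations are a description: genes share cells and libraries, and 58 of the 77 stand at 0. The authors kept only molecules with a unique alignment and removed molecules under about 500 bp, and the median coding length was 576 bases in detected and 446 in undetected genes. Of the mitochondrial genes, which had a median of 0 copies, 55 were detected and 23 were not. The part of copies, unique alignment and length in the counts was not tested.

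**Figure D3:**
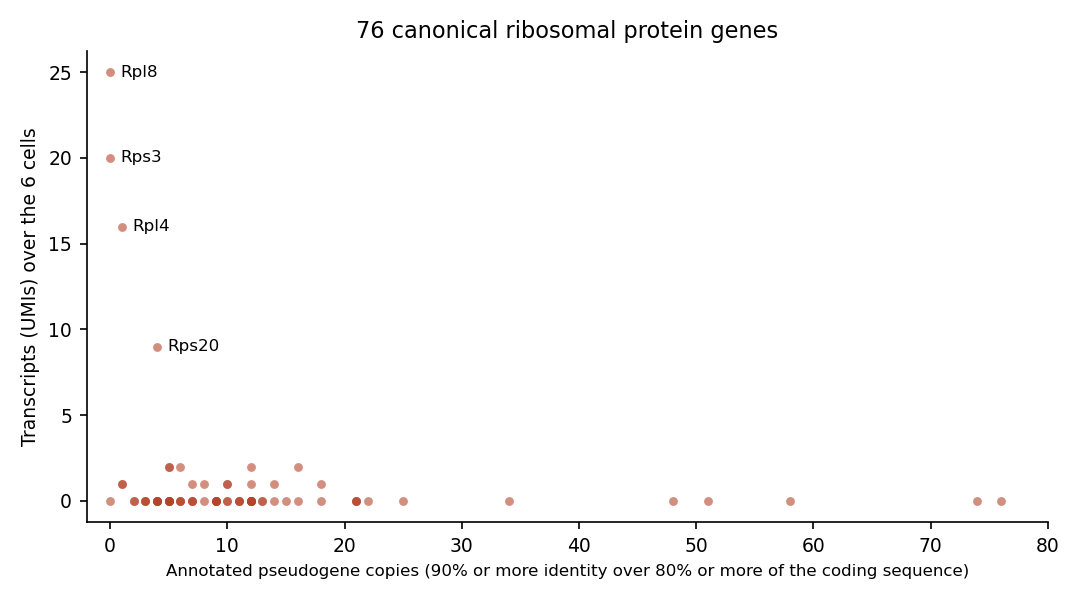
Transcripts over the 6 cells (vertical axis) against the number of annotated pseudogene copies of 90% or more identity over 80% or more of the coding sequence (horizontal axis), 1 point for each of 76 canonical ribosomal protein genes. The 4 labelled genes have 0 to 4 copies, and no gene with more than 18 copies has a transcript.

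Aligned molecules of ribosomal protein genes had a median length of 731 bases (quartiles 501 and 841), shorter than the 881 bases of other genes (516 and 1594). They reached the 5′ end more often than other genes as a whole. An annotated first exon was covered by 106 of 133 molecules at their locus, 79.7% (interval 72.1% to 85.7%), against 38.3% of 35666 molecules of other genes. In mitochondrial ribosomal protein genes, with a median aligned length of 662 bases, 123 of 171 molecules covered a first exon. This share was also above that of other genes, so high cover was not limited to the cytosolic set. Whether the cytosolic and mitochondrial sets differ in cover was not tested. Per cell the covered molecules of the cytosolic genes were 2 of 3 and 31 of 36 in the VLMCs. They were 44 of 47 and 3 of 11 in Oligo1, and 14 of 23 and 12 of 13 in Oligo5. Cytosolic ribosomal protein genes were above the other genes in all 6 cells. The same cells that were low here, Oligo1-2 and Oligo5-1, were low for other genes, at 13.0% and 20.8% against 38.6% to 51.1% in the rest. Averaged over the 3 cell types the difference was 34.2 percentage points (32.9 in VLMCs, 29.1 in Oligo1, 40.6 in Oligo5; two-sided exact sign-flip permutation p = 0.25, the smallest that 3 cell types allow), and 24.8 points against other genes with a coding length of at most 1257 bases, the longest of the 25. In 102 of 131 molecules the 5′ end lay at or before the start codon and the 3′ end at or past the stop codon. What lay between the ends was not checked in this count, which includes the Rps3 molecule with skipped exons given below.

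The 5′ ends of ribosomal protein transcripts were TOP-type starts far more often than those of other genes. A TOP-type start was defined as C at the 5′ end followed by 4 pyrimidines (C or T), read on the strand of the transcript. Of 105 ends in or up to 50 bp before a first exon, 60 were of this type, 57.1% (interval 47.6% to 66.2%), against 543 of 13328 in other genes, 4.07% (3.75% to 4.42%). By cell the numbers were 1 of 2 and 19 of 31 in the VLMCs, 19 of 43 and 2 of 3 in Oligo1, and 9 of 14 and 10 of 12 in Oligo5. The share was above that of other genes in every cell, whose shares of 2.18% to 5.01% did not overlap with those of ribosomal protein genes. The highest share was that of Oligo5-2, the cell with neuron markers, whose part was not tested, and without this cell 53.8% of the ends were TOP-type. The difference averaged 58.2 percentage points over the cell types (53.3, 51.6 and 69.6 in VLMCs, Oligo1 and Oligo5; two-sided exact sign-flip permutation p = 0.25, the smallest possible). Over the 5′ ends of other genes A and G were the commonest first bases, at 38.3% and 39.7%, whereas in ribosomal protein genes C made 60.0% and T 21.9%. A pyrimidine followed by 4 more began 73.3% of the ends of ribosomal protein genes and 5.95% of the others. The template-switching oligo of STRT ends in G, and a GGG in the genome just before the 5′ end, where that oligo can anneal, was found at 0 of 102 ends of ribosomal protein genes and at 1.87% of those of other genes. With only 102 ends, a share as low as 1.87% can also give 0, so these values do not separate the 2 sets of genes.

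**Figure D4:**
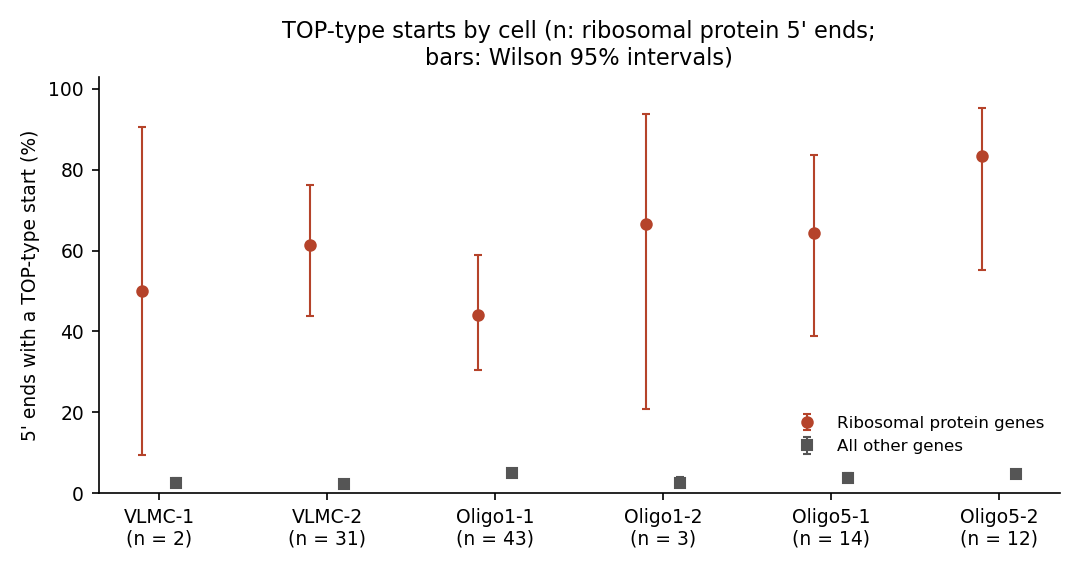
Share of 5′ ends with a TOP-type start, in percent, in ribosomal protein genes and in all other genes of each cell, with Wilson 95% intervals as bars and the number of ribosomal protein 5′ ends under each cell. Ribosomal protein genes lie between 44.2% and 83.3%, and other genes between 2.18% and 5.01%.

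The share of TOP-type starts differed between classes of genes. In canonical subunits it was 62.8% of 86 ends (interval 52.2% to 72.3%), and in the paralogs and Rps19bp1 together 31.6% of 19 (15.4% to 54.0%). These 2 intervals overlap, and the second set was mixed. Rpl22l1 and Rpl36al each had 3 of 4, while Rps27l had 0 of 5 and Rpl7l1, Rps4l and Rps19bp1 each 0 of 2. Over all ribosomal protein genes without those of 20 or more transcripts, the share was 42.0% of 50 ends. Of the listed translation genes, 51.4% of 74 ends were TOP-type (40.2% to 62.4%), with 10 of 14 in Eef1b2, 14 of 23 in Gas5 and 4 of 6 in Eif4a2, while Eif3l had 1 of 5 and Gnb2l1 (a synonym of Rack1, a scaffold protein of the small subunit) 0 of 4. Mitochondrial ribosomal protein genes had 1 of 123 (0.813%, interval 0.144% to 4.46%), and thus stood near the other genes and not near the cytosolic ones. At least 50% of ends were TOP-type in 4 of the 6 ribosomal protein genes and in 9 of 585 other genes with 5 or more ends. Of these 9, Eef1b2, Eif4a2 and Gas5 were on the list of translation genes, and the others were Atad1, Krtcap2, Lmbrd1, Ndufb5, Ola1 and Snhg3. The same letters stood at the annotated start of 2.51% of 32851 RefSeq promoter windows and of 18.5% of 81 windows of genes that the rule takes, set beside 57.1% of the observed 5′ ends.

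The start sites were narrow. With 5′ ends within 5 bp chained into 1 site, 67 of 77 ends of the 6 genes with 5 or more ends lay at the main site of their gene (87.0%, interval 77.7% to 92.8%), against 64.7% of 9363 ends in 591 other genes. With every base counted as a site of its own the shares were 50.6% and 38.2%. In Rpl8, 16 of 19 ends were at the main site, which was 3 bases wide, and 12 shared a single base, chr15:76904085, with 35 bases to the start codon. The ends that lay elsewhere were 3 Oligo1-1 molecules, 13 and 6 bases upstream and 215 bases downstream of that base.

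The site of Rps3 was wider. All 15 of its ends formed a single site, which was 15 bases wide with 9 distinct positions, and the most used base, chr7:99483650, held 4. By cell, ends lay at 4 bases upstream to 5 downstream of it in VLMC-2, at 2 upstream to 0 in Oligo1-1, at 4 to 10 downstream in Oligo5-1, and both at 0 in Oligo5-2. Of the 15, 11 began with C and 4 pyrimidines, and these 11 lay in the same pyrimidine-rich stretch. Rps20 had 8 of 9 ends within 5 bases and Rpl4 6 of 7 within 8 bases. In Rpl4, whose run of 8 pyrimidines is shown above, 3 of 7 ends began with C and 4 pyrimidines. The base shown coincided with the annotated start and held 2 ends, both of Oligo5-2. The next base downstream held as many, of VLMC-1 and Oligo1-1, and of the 2 bases the upstream one was taken.

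**Figure D5:**
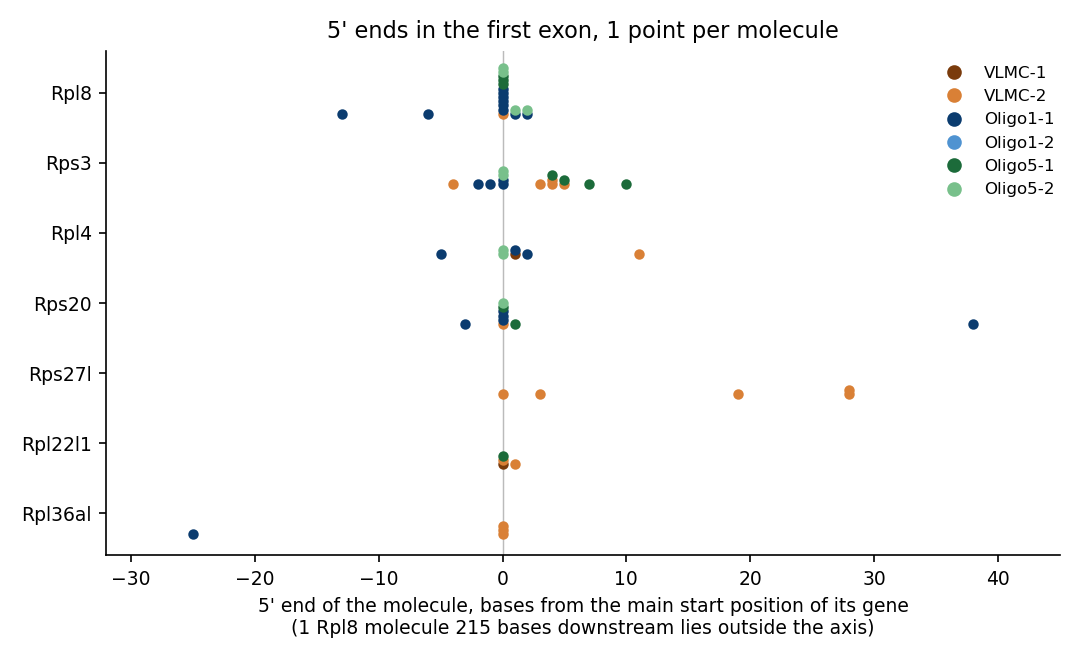
Position of each 5′ end in the first exon, in bases from the main start position of its gene (0), 1 point per molecule, coloured by cell. In Rpl8 12 of 19 ends lie at 0, and in Rps3 15 ends spread over 15 bases.

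The 5′ UTR, from the observed 5′ end to the start codon, had a median of 47.5 bases over 104 molecules of ribosomal protein genes (quartiles 29.0 and 72.0), against 86.0 bases over 11138 molecules of other genes (51.0 and 140). It was under 50 bases in 51.9% of the former and 24.2% of the latter. Median lengths were 26.0 bases in Rps3, 35.0 in Rpl8, 55.0 in Rpl4 and 113 in Rps20, so the 4 genes differed more than 4-fold. The longest was that of a single Rpl9 molecule, 387 bases, which held a whole intron.

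The 3′ ends were also narrow. Of 99 molecules of the 6 genes with 5 or more, 96 ended at the main end site (97.0%, interval 91.5% to 99.0%), against 68.8% of 26755 in 1693 other genes. With every base counted as a site of its own the shares were 50.5% and 32.6%, and the share of ribosomal protein genes was then close to that of their 5′ ends. All 25 Rpl8 molecules ended within 4 bases. Rps3 and Rpl4 each had 1 molecule away from the main site, and their ends still fell within 19 bases. In both genes the site lay before the end of the 1 annotated RefSeq-linked transcript chosen for each gene, by a median of 995 bases in Rps3 and 151 in Rpl4. The same held for Rps20 (3139 bases) and Rpl7l1 (1194). Ends of other annotated transcripts of these genes were not compared. No molecule of these 4 genes reached the end of the chosen transcript. In Rpl8 the ends lay 2 to 5 bases before the end of its chosen transcript.

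Exon skipping was rare. Of 120 molecules that spanned 3 or more exons, 1 lacked an internal exon (0.833%, interval 0.147% to 4.57%), against 9.32% of 17089 in other genes. These values use the deposited exon numbers. By overlap of aligned blocks with exons they were 0.833% and 7.44% of 17088. Both count molecules and do not correct for the number of exons spanned. The skipping molecule was an Rps3 molecule of Oligo5-1 with 2 reads. Its joint lay inside an exon on both sides and not at the exon edges, so that it kept 39 of 197 and 63 of 94 bases of the exons joined and lacked 2 exons between them, 472 exonic bases in all. A whole intron lay inside an aligned block in 4 of 125 molecules (3.20%, interval 1.25% to 7.94%; 1.80% in other genes), 1 each of Rpl22l1 in VLMC-1, Rpl27 in VLMC-2, Rpl9 in Oligo5-1 and Rps6 in Oligo5-2, each with 1 read.

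The l-suffix paralogs were found more often than their partners, and mostly in a single cell. Over 8 pairs, 18 of 21 transcripts came from the paralog (85.7%, interval 65.4% to 95%), and 12 of the 18 were in VLMC-2. Rpl22l1 (chr3:28805436-28807424), a paralog of Rpl22 with roles in RNA splicing, had 1 transcript in VLMC-1, 2 in VLMC-2 and 1 in Oligo5-1, against 0 of Rpl22. A further molecule under this name, in VLMC-2 with 22 reads, had 4 of 6 blocks equal to exons of Rpe on chromosome 1 and was left out of all results on pairs, sites and splicing. Rps27l (chr9:66946086-66949516), a target of p53, had 5 transcripts, all in VLMC-2, against 0 of Rps27, and none of its 5 ends was TOP-type. They lay at 3 sites within 29 bases, of which 2 sites held 2 ends each. Rpl36al (chr12:69182731-69184083) had 3 in VLMC-2 and 1 in Oligo1-1, against 0 of Rpl36a. Its 3 ends in VLMC-2 shared 1 base with a TOP-type start, and that in Oligo1-1 lay 25 bases upstream. Rpl7l1 (chr17:46773907-46782672) had 2 in Oligo1-1 and 1 in Oligo5-1, against 1 of Rpl7 in VLMC-2, which began with C and a run of 14 pyrimidines. Rps4l, which GENCODE M21 annotates as a transcribed processed pseudogene with a single exon, had 2 in VLMC-2, against 1 of Rps4x in Oligo1-1. Rpl39 had 1 in Oligo1-1 and Rpl39l 0, and the pairs Rpl3 and Rpl3l and Rpl10 and Rpl10l had 0.

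Within pairs, coding sequences matched at 52.7% of bases (Rpl7 and Rpl7l1) to 87.7% (Rpl36a and Rpl36al). Where copies were counted for both genes of a pair, the paralog had fewer pseudogene copies of 90% or more identity in all 7 pairs. At 95% identity Rpl22 had 1 copy and Rpl22l1 had 2, and the order of the other pairs was kept. At 90% the numbers were 4, 5, 9 and 10 for Rpl22, Rpl36a, Rps27 and Rpl7 and 3, 2, 5 and 4 for their paralogs. They were 10, 18 and 21 for Rpl10, Rpl39 and Rpl3 and 1, 0 and 0 for theirs, which had no transcript. The part of copies in these counts was not tested. In VLMC-2, several transcripts of 1 gene had UMIs that differed by 1 base or by a shift of 1 base. There were 16 such pairs among all ribosomal protein molecules, 11 of them in VLMC-2 (among them 3 of Rps3, 2 that link the 3 Rpl36al molecules, and 1 each of Rpl22l1 and Rps27l), and in all 16 the 5′ ends lay within 5 bp. Merging these UMIs in the whole table left 118 of 134 transcripts, with 26 of 37 in VLMC-2, and the paralog share of the pairs was then 81.2%. The ribosomal protein share of VLMC-2 was then 0.770% and still the highest of the 6 cells.

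Ratios between cell types are given for Rpl8 and Rps3, which had the 20 transcripts set as a minimum. With means over the cells of a type, Rpl8 was 0.291 times as high in VLMCs as in oligodendrocytes (0.0216% against 0.0744%), while 58.6% of 220 genes with as many transcripts were 2-fold or more lower in VLMCs. Rps3 was 2.13 times as high in VLMCs (0.0865% against 0.0406%), and 18.2% of the 220 genes were 2-fold or more higher. Since VLMC-1 had 0 transcripts of both genes, these ratios came from VLMC-2 alone, in which 0.582 (Rpl8) and 4.26 (Rps3) times the mean oligodendrocyte share was found. With 1-base UMI differences and shifts merged, Rps3 was at 1.36. Between Oligo1 and Oligo5, Rpl8 was at 0.973 and Rps3 at 0.372, where 37.0% of 208 genes were 2-fold or more higher and 20.7% as much lower in Oligo1. Without Oligo1-2, which had 0 Rps3 transcripts, the Rps3 ratio was 0.743. None of these ratios was tested.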

How the data were processed

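The authors split concatemers of PacBio reads, kept reads with a cell barcode and poly-A, aligned them to mm10 with GMAP (the labels name GSNAP), kept unique alignments, joined neighbouring blocks with gaps under 40 bp, assigned genes and exons from RefSeq and merged reads of 1 UMI. The deposited values are counts of reads per transcript, without normalization, with the positions of aligned blocks. Each transcript was counted once here. Of 6357 names, 6132 matched GENCODE M21 (GRCm38) by symbol and 200 by synonym, and 25 did not match. Block starts count from 0, since 97.3% of those after the first equalled an annotated exon start after 1 was added. Positions within 5 bp were chained into 1 site. Close copies were annotated pseudogenes found with blastn 2.17.0. The genes named were the 5 with the most transcripts, the l-suffix pairs and those with 20 or more transcripts, whose ratios are given. An item that these rules take is counted in all sums but not reported here by itself. The genes, lists and rules were chosen with earlier results of these data known. Molecules read 2 or more times, reads, each run and leaving out each cell were among the alternatives, and code was tested on simulated data. Python 3.11.15, pandas 2.3.3, numpy 2.4.6 and scipy 1.17.1 were used.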

Additional observations from a re-analysis of the deposited data

How the results depend on the processing

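The difference between ribosomal protein and other genes stayed positive in every alternative computed, at 41.4 to 74.4 percentage points for TOP-type starts and 24.1 to 39.2 for first exon cover, with p = 0.25 wherever the exact sign-flip permutation test was run. The share of transcripts was 0.771% among molecules that cover the first exon. TOP-type starts were 73.3% with any pyrimidine first, 72.4% when such a start within 1 bp counted, and 42.0% without genes of 20 or more transcripts. The paralog share was 100% and the median 5′ UTR 35.0 bases in molecules read 2 or more times, in which 95.8% of 5′ ends were at the main start site. With every position distinct, 50.6% of 5′ and 50.5% of 3′ ends were at the main site. Sites within 10 bp gave 94.8% and 100%, and within 20 bp 97.4% and 100%. Genes past 2-fold numbered 169 between VLMCs and oligodendrocytes and 120 between Oligo1 and Oligo5, but 501 and 343 with 10 or more transcripts, and 51 and 33 from molecules read 2 or more times. Leaving out each cell gave 0% to 1.35% for exon skipping, 100 to 162 and 69 to 111 genes past 2-fold (lowest without Oligo1-1), and 0.432 to 2.66 for the ratio of VLMC to oligodendrocyte shares, which turned below 1 without VLMC-2, as did that of Rps3 (0 without VLMC-2, 4.26 without VLMC-1). The skipping molecule lay in Oligo5-1. Alternatives added after the data were seen were merging shifted UMIs, canonical subunits alone (share ratio 1.08), omitting genes of 20 or more transcripts, the coding length limit and omitting Rps4l. Depth limits all per-gene counts, and for VLMC-1 a count of 0 allows up to 0.130% by counting alone. No paired analysis was possible because the labels link no cells of different types and no test compares groups. The sign-flip test sets gene classes side by side within a cell type and pairs no replicates.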
